A study of Mus musculus with 16 samples.

Results

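Mitosis and G2 phase genes, the mRNAs that peak as a cell prepares for and passes through division, were followed in mouse blood-forming cells after RNA synthesis was blocked. The 43 members were taken by name from the 55414 genes of the count files: Cdk1 and its cyclins, the aurora and polo kinases, the spindle checkpoint, the kinetochore, spindle motors, cytokinesis proteins, condensin, Top2a and Mki67. Each name matched 1 gene identifier, and all 43 passed the filter on low counts. The choice used no measured value of these genes, but it was made with earlier results of the same data known. Per the labels, the cells are long-term haematopoietic stem cells (LT-HSCs), sorted from mouse marrow depleted of lineage-positive cells and kept in culture, while the sample titles name 32D, a myeloid cell line. The cells were wild type (WT) or Nat10-deficient (Nat10-/- in the titles). Nat10 is the enzyme that acetylates cytidines in RNA. All received 5 µM actinomycin D, which stops transcription, and were sorted at 0, 1, 3 or 5 h. That gives 8 groups of 2 libraries, 4 WT and 4 labelled deficient, and the labels give neither the age of the mice, the number pooled, nor how Nat10 was removed.

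Most of these genes are switched off in resting cells and rise together in late S and G2 phase. In resting cells the DREAM complex holds them down, and in cycling cells the same DNA-binding core, the MuvB proteins, joins B-Myb and FoxM1 to switch them on. MuvB contacts a promoter element called the cell cycle genes homology region (CHR), often found at a fixed distance downstream of CCAAT boxes that bind NF-Y. Long-term stem cells divide rarely, and their division mRNAs are low in the marrow and rise when the cells enter the cycle in culture.

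The promoters of 8 members that stand for the 5 roles show what the group shares at its start sites. Each runs from 120 bases before the annotated start to 30 bases after it, on build GRCm38.p6 from RefSeq, and is written 5′ to 3′ in the direction of the gene. Capitals mark each match to a CHR (TTTGAA or TTCGAA, either strand) or a CCAAT box (either strand), so TTCAAA and ATTGG are the reverse forms.
Cdk1, chr10:69352883-69353032, minus strand: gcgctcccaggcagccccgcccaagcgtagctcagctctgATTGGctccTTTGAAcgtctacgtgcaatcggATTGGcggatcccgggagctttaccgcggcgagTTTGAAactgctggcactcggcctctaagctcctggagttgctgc
Ccnb2, chr9:70421525-70421674, minus strand: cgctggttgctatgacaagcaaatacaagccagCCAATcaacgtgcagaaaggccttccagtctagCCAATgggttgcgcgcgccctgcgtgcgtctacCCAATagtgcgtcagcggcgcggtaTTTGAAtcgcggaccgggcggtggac
Ccnb1, chr13:100786457-100786606, minus strand: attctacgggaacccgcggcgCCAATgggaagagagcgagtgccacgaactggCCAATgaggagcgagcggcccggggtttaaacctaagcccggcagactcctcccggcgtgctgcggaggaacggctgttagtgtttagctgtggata
Cdc20, chr4:118437314-118437463, minus strand: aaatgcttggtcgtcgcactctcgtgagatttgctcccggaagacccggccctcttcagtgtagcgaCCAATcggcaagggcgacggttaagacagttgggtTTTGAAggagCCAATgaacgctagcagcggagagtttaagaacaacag
Ube2c, chr2:164769809-164769958, plus strand: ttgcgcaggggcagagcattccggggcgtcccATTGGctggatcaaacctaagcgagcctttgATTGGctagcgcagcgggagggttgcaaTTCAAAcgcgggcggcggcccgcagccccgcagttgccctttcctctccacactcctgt
Cenpa, chr5:30666766-30666915, plus strand: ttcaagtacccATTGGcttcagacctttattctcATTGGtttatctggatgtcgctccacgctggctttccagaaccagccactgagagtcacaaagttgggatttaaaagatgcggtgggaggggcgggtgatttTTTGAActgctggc
Kif11, chr19:37376262-37376411, plus strand: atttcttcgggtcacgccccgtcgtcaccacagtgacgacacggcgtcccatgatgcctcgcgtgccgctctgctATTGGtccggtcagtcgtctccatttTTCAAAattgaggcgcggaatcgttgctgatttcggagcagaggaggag
Top2a, chr11:99024160-99024309, minus strand: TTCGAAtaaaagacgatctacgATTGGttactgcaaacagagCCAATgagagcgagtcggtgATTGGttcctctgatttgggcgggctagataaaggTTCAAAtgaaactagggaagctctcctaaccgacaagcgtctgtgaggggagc

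Cdk1, Cdc20, Ube2c, Kif11 and Top2a have a CHR shortly before the start and at least 1 CCAAT box upstream of it, and in Cdc20 another CCAAT box lies between the CHR and the start. Ccnb2 and Cenpa have the CHR just after the annotated start, and Ccnb1 has CCAAT boxes but no match to these CHR letters in the window. Over the full windows of 250 bases before to 50 after the start, 39 promoters of 37 members were found. Ccna2, Kif20a, Smc4, Aurkb, Tpx2 and Cdc25c had no entry. A CHR match was present in 31 of the 39 (79.5%), against 19.2% of all 32851 promoters of the same length. A CHR within 50 bases of the start was present in 27 (69.2%), against 5.31% of all. CCAAT boxes were present in 30 (76.9%) against 37.4%, and both elements in 27 (69.2%) against 7.52%. In 1 member promoter a CHR and a CCAAT match overlapped. Neither element was found for Mad2l1, Nuf2, Birc5, Nusap1 and Tacc3. A match is a run of letters and not a measured binding site. The map of matches by distance from the start shows where they lie in each member.

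Total counts per library were 9142413 to 17274128, and the 43 members together took 9913 to 86599 counts. The lowest count of any member in any library was 14, for Cdc25c. Although the labels call the 2 files of a group biological replicates, their headers point to 1 shared alignment in all 8 groups. Over the members, chi-square per degree of freedom was 1.14 to 2.62 for files of a group and at least 34.5 for adjacent times. The p-values below therefore measure the spread between the files of a group and not between separate sorts, and the 0 h, mean and slope fits were repeated on group sums. Nat10 mRNA stood at 111 ± 2.5 CPM in the libraries labelled deficient (counts scaled to the same total of gene counts in each library, mean ± SD, n = 2 files) against 103 ± 0.042 in WT at 0 h, and at 94.8 ± 3.8 against 99.2 ± 5.3 at 1 h. The 1 h difference passed as lower with the deficient label (log2 -0.12, edgeR adjusted p = 0.0421), and those of the other times passed as higher. At 3 h Nat10 stood at 95.6 ± 1.7 CPM with the deficient label and 33.7 ± 3.7 in WT. At 5 h it stood at 154 ± 10 and 16.1 ± 0.89. Its log2 differences at 0, 3 and 5 h were 0.33, 1.21 and 1.96. Counts over the whole gene cannot reveal a removed exon or an exchange of labels. Neither was tested, and each group is named here by its label only. Immunoglobulin genes took 3.62%, 25.6%, 49.4% and 59.5% of gene counts in WT at 0, 1, 3 and 5 h and 6.44%, 9.02%, 24.5% and 3.90% in the libraries labelled deficient. Equal amounts of ERCC spike-in RNA, which the labels report, made up 0.0221% to 2.92% of all counts. TMM scaling, used for all differences below except decay, sets each library against its other genes, so a higher value means higher relative to the rest. In such bulk samples fewer dividing cells and less mRNA per dividing cell cannot be told apart.

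Before the block, Cdc20 had the highest level of the 43 per kilobase of exon in both genotypes, at 80.8 CPM per kilobase in WT and 118 in the libraries labelled deficient. Cdc20 activates the anaphase-promoting complex, the ubiquitin ligase that ends mitosis. Birc5, which encodes survivin, and Aurkb, both of the chromosomal passenger complex, followed at 41.5 and 40.8 in WT, within 1 CPM per kilobase of each other. With the deficient label they stood at 58.5 and 60.0. The lowest levels were those of Kif23 in WT (2.19) and Ndc80 in the libraries labelled deficient (2.72). Cdk1, at 4.34 and 8.15 CPM per kilobase, ranked 34 of 43 in WT and 33 with the deficient label. Exonic length as the files give it sums every annotated exon, so genes with rarely used exons read low on this scale. For 13 members some exonic bases belong to another gene too, most for Kif20a (29.3%, shared with Cdc23) and Ube2c (22.8%, shared with Tnnc2). The counting ignored strand, so reads from shared bases cannot be told apart.

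Division mRNAs were higher in the libraries labelled deficient than in WT at each time. At 0 h 41 of the 43 members were higher and Cdc25c was lower (edgeR quasi-likelihood test, Benjamini-Hochberg adjusted p under 0.05), with a median log2 difference of 0.77. Over all 25081 genes tested, 36% were called higher and 24.2% lower, with a median of 0.10. At 1 h 42 members were higher and none lower, with a median of 1.17, against 32.4% of all genes higher and 31.8% lower. At 3 h 38 were higher and Mki67 was lower, with a median of 0.91, against 30.4% higher and 37% lower over all genes. At 5 h 38 were higher and Ttk was lower, with a median of 1.21, against 34.2% and 30.1%. Of these lone lower calls that of Mki67 held without the low-count filter, with the replicate block and without any 1 library of its time. That of Ttk was lost in each of these fits, and that of Cdc25c was lost without the filter and without 3 of the 4 libraries at 0 h. Averaged over the 4 times all 43 were higher, with a median of 1.02 and a range of 0.34 (Ndc80) to 1.71 (Cdca3), against 31.6% of all genes higher and 21.6% lower. At all 4 times 35 members were called higher, and the exceptions were Cks2, Cdc25c, Ttk, Ndc80, Kif23, Prc1, Ect2 and Mki67. The share of all genes called higher at all 4 times was not computed, so this count has no background beside it. The difference was largest at 5 h for 20 members, at 1 h for 15, at 3 h for 6 and at 0 h for 2.

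**Figure D1:**
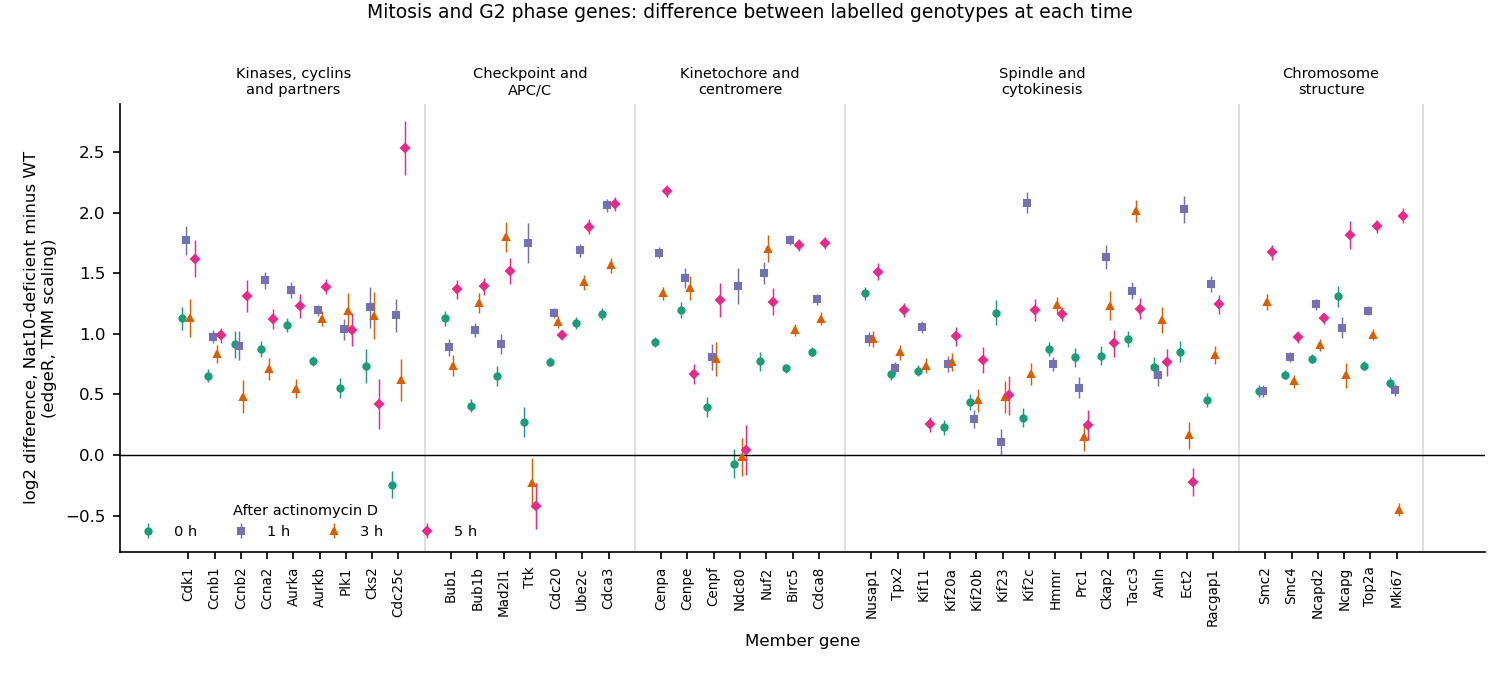
Log2 difference of each member between libraries labelled Nat10-deficient and WT libraries at 0, 1, 3 and 5 h (edgeR estimate under TMM scaling; bars are standard errors, 2 files per group), grouped by role. Most points lie above 0, with Ndc80 near 0 at 3 of the times, Mki67 below 0 at 3 h and Cdc25c at its highest, 2.53, at 5 h.

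The size of these differences depends on what the libraries are set against. Scaling on 24 long-lived mRNAs lowered the members' differences by 0.33, 0.48, 0.70 and 0.29 at 0, 1, 3 and 5 h, and at 3 h 23 members were then higher and 6 lower, against 13.9% and 55.3% of all genes. Scaling on ERCC counts raised them by 5.46 to 6.14, where the spike-in share was 0.0224% to 0.126% with the deficient label and 1.81% to 2.91% in WT groups, and it put above 0 the negative values of Cdc25c and Ndc80 at 0 h, of Ttk, Ndc80 and Mki67 at 3 h, and of Ttk and Ect2 at 5 h. With the 2 files of a group summed no member was called at 0 h (edgeR; 26 of 43 at an unadjusted p under 0.05, and 0 of all genes called, with 1240 at that p), although 42 of 43 lay above 0 and the median was 0.93. For the mean of the times the summed files left Cdca3 called (edgeR adjusted p = 0.0365), against 8 genes higher (0.0319%) and 9 lower (0.0359%) over all. Over the fits that changed the scaling, tool, filter, block or a library, the members that kept both call and direction numbered 35 (0 h), 37 (1 h), 23 (3 h) and 36 (5 h). How many of all genes kept theirs was not computed.

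The kinases and cyclins start mitosis: Cdk1 bound to cyclin A2 (Ccna2) or cyclin B (Ccnb1, Ccnb2) phosphorylates the mitotic proteins, and Plk1 and the aurora kinases act on centrosomes, kinetochores and the spindle. Of the 9, 8 were higher at 0 h, all 9 at 1 and 3 h, and 8 at 5 h. The shares of all genes called higher at these times were 36%, 32.4%, 30.4% and 34.2%. Cdk1 (ENSMUSG00000019942, chromosome 10, 69170976 to 69188768, GRCm39) led the group at 0 h, 1 h and over the mean of the times. In WT, Cdk1 stood at 15.7 and 14.0 (0 h), 8.08 and 7.26 (1 h), 9.57 and 7.53 (3 h) and 8.78 and 9.10 (5 h) in TMM-scaled CPM. Cdk1 stood at 32.1 and 32.7 (0 h), 26.2 and 26.6 (1 h), 20.5 and 17.1 (3 h) and 28.6 and 26.3 (5 h) in the libraries labelled deficient. Each file labelled deficient was above all 8 WT files. The log2 differences at 0, 1, 3 and 5 h were 1.13 ± 0.094, 1.77 ± 0.12, 1.13 ± 0.15 and 1.62 ± 0.16 (SE), and the largest adjusted p by edgeR was 3.00e-11, at 3 h.

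Ccna2, the cyclin of S and G2 phase, was higher at each time too. The WT files held 34.5 and 31.2 (0 h), 26.2 and 30.2 (1 h), 30.5 and 34.0 (3 h) and 39.9 and 32.1 (5 h) of TMM-scaled CPM. The files labelled deficient held 57.9 and 62.7 (0 h), 75.1 and 76.9 (1 h), 55.2 and 50.1 (3 h) and 79.5 and 78.7 (5 h). The groups did not overlap at any time, and the differences ran 0.87 ± 0.064, 1.44 ± 0.069, 0.71 ± 0.087 and 1.12 ± 0.085 (SE; largest edgeR adjusted p 1.56e-13, at 3 h). Ccnb1 (chromosome 13, 100915158 to 100923078), the main cyclin partner of Cdk1 in mitosis, had the smallest mean difference of the group, 0.86 ± 0.03. Ccnb1 had TMM-scaled CPM of 56.3 and 55.97 (0 h), 48.9 and 54.4 (1 h), 40.7 and 44.8 (3 h) and 74.5 and 69.7 (5 h) in WT. Its values with the deficient label were 89.5 and 87.3 (0 h), 101 and 102 (1 h), 74.1 and 77.8 (3 h) and 145 and 142 (5 h). Within a time the genotypes were separate, but WT at 5 h reached the lowest deficient values, those of 3 h. Its differences were 0.66 ± 0.051, 0.98 ± 0.055, 0.83 ± 0.072 and 0.99 ± 0.062 (SE; largest edgeR adjusted p 1.04e-23, at 3 h). Ccnb2, the second B-type cyclin, had the smallest difference of the group at 1 h, 0.90 ± 0.12, and at 3 h, 0.48 ± 0.14, and its 3 h value became -0.21 when scaled on long-lived mRNAs.

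Aurkb, the kinase of the chromosomal passenger complex, was the most abundant kinase of the group per kilobase at 0 h. In WT, Aurkb stood at 85.2 and 80.9 (0 h), 79.5 and 77.3 (1 h), 60.8 and 55.6 (3 h) and 53.4 and 67.0 (5 h) in TMM-scaled CPM. Aurkb stood at 141 and 143 (0 h), 181 and 178 (1 h), 126 and 128 (3 h) and 152 and 159.8 (5 h) in the libraries labelled deficient. The lowest file labelled deficient lay well above the highest WT file. Its differences were 0.78 ± 0.043, 1.20 ± 0.045, 1.13 ± 0.06 and 1.39 ± 0.062 (SE; largest edgeR adjusted p 2.35e-44, at 0 h). Plk1, polo-like kinase 1, fell in both genotypes between 1 and 3 h. The WT files held 24.2 and 22.8 (0 h), 22.8 and 19.9 (1 h), 8.09 and 9.80 (3 h) and 13.3 and 13.0 (5 h) of TMM-scaled CPM. The files labelled deficient held 35.5 and 33.5 (0 h), 43.9 and 44.5 (1 h), 19.3 and 21.5 (3 h) and 26.7 and 27.4 (5 h). The difference was 0.55 ± 0.082, 1.04 ± 0.086, 1.19 ± 0.15 and 1.03 ± 0.14 (SE; largest edgeR adjusted p 6.96e-10, at 0 h), the largest of the group at 3 h. Aurka, which works at the spindle poles, differed by 1.07 ± 0.057 at 0 h and 0.55 ± 0.079 at 3 h. Cks2, a small subunit that binds Cdk1, was the smallest at 5 h, where its 0.42 ± 0.21 did not pass the test (edgeR adjusted p = 0.068).

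Cdc25c, the phosphatase that removes the inhibitory phosphates from Cdk1, went against the group at 0 h. Cdc25c had TMM-scaled CPM of 19.3 and 15.5 (0 h), 7.83 and 7.68 (1 h), 8.76 and 7.67 (3 h) and 2.36 and 4.14 (5 h) in WT. Its values with the deficient label were 14.8 and 14.7 (0 h), 18.4 and 16.1 (1 h), 13.5 and 11.8 (3 h) and 17.9 and 18.8 (5 h). WT was higher at 0 h and lower at the other times, and at 5 h the WT level was the lowest of any member. The difference was -0.24 ± 0.11 at 0 h (edgeR adjusted p = 0.0499) and 2.53 ± 0.23 at 5 h, the largest of any member at any time.

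The spindle checkpoint delays anaphase until every chromosome is attached, through Ttk, Bub1, Bub1b and Mad2l1, and Cdc20 and Ube2c then let the anaphase-promoting complex act. All 7 genes of this group were higher at 0 h and 1 h, 6 at 3 h and 6 at 5 h (36%, 32.4%, 30.4% and 34.2% of all genes). Bub1b, which encodes the checkpoint kinase BubR1, had larger differences at the later times than at 0 h. In WT, Bub1b stood at 54.5 and 54.96 (0 h), 36.8 and 42.3 (1 h), 29.9 and 28.7 (3 h) and 49.3 and 46.1 (5 h) in TMM-scaled CPM. Bub1b stood at 73.9 and 71.1 (0 h), 80.1 and 80.6 (1 h), 67.2 and 72.8 (3 h) and 127 and 124 (5 h) in the libraries labelled deficient. Its differences were 0.41 ± 0.054, 1.03 ± 0.061, 1.26 ± 0.081 and 1.39 ± 0.071 (SE; largest edgeR adjusted p 9.53e-12, at 0 h). Mad2l1, the inhibitor of Cdc20, had the largest difference of the group at 3 h. The WT files held 21.5 and 23.6 (0 h), 21.6 and 22.3 (1 h), 10.4 and 11.4 (3 h) and 20.6 and 23.2 (5 h) of TMM-scaled CPM. The files labelled deficient held 36.0 and 34.7 (0 h), 42.4 and 40.2 (1 h), 39.4 and 36.4 (3 h) and 61.5 and 63.2 (5 h). WT and deficient-labelled files did not overlap at any time or across times. The differences were 0.65 ± 0.079, 0.92 ± 0.084, 1.80 ± 0.12 and 1.52 ± 0.1 (SE; largest edgeR adjusted p 1.26e-13, at 0 h).

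Cdc20 (chromosome 4, 118290098 to 118294549) had the highest level per kilobase. Cdc20 had TMM-scaled CPM of 101 and 108 (0 h), 102 and 97.1 (1 h), 104 and 107 (3 h) and 155 and 149.6 (5 h) in WT. Its values with the deficient label were 174 and 182 (0 h), 222 and 228 (1 h), 218 and 233 (3 h) and 307 and 299 (5 h). No WT file reached the lowest file labelled deficient, and the differences were 0.77 ± 0.038, 1.17 ± 0.04, 1.10 ± 0.046 and 0.99 ± 0.044 (SE; largest edgeR adjusted p 1.12e-51, at 0 h). Ube2c, the ubiquitin-conjugating enzyme of the anaphase-promoting complex, rose in both genotypes from 3 to 5 h relative to the other genes. In WT, Ube2c stood at 40.5 and 42.9 (0 h), 33.4 and 36.0 (1 h), 42.99 and 42.2 (3 h) and 67.9 and 63.1 (5 h) in TMM-scaled CPM. Ube2c stood at 87.3 and 90.04 (0 h), 113 and 109.7 (1 h), 116 and 113 (3 h) and 239.7 and 246 (5 h) in the libraries labelled deficient. The differences were 1.09 ± 0.052, 1.69 ± 0.057, 1.42 ± 0.066 and 1.89 ± 0.058 (SE; largest edgeR adjusted p 1.15e-53, at 0 h). Cdca3, an F-box-like protein linked to mitotic entry, led the group at 0, 1 and 5 h with 1.16 ± 0.051, 2.06 ± 0.057 and 2.07 ± 0.06. Bub1 was the smallest at 1 h with 0.89 ± 0.073.

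Ttk, the kinase that starts checkpoint signalling, did not keep its direction. The WT files held 10.6 and 12.8 (0 h), 4.49 and 4.00 (1 h), 8.49 and 6.68 (3 h) and 11.5 and 10.3 (5 h) of TMM-scaled CPM. The files labelled deficient held 15.5 and 12.8 (0 h), 14.2 and 14.6 (1 h), 7.24 and 5.76 (3 h) and 8.05 and 8.30 (5 h). The genotypes stood well apart at 1 h, where WT was low, were close at 0 h, overlapped at 3 h and lay in the other order at 5 h. The differences were 0.27 ± 0.12, 1.75 ± 0.16, -0.23 ± 0.21 and -0.42 ± 0.19, with edgeR adjusted p-values of 0.0475, 6.75e-21, 0.328 and 0.0449. The 5 h call was lost with the replicate block, without the low-count filter, on totals without immunoglobulin genes and without any 1 of the 5 h libraries, where the value ran from -0.45 to -0.17. The 0 h call was lost with the block, without the filter, on totals without immunoglobulin genes, with DESeq2 and without the first file of either genotype, and its value turned to -0.05 under scaling on long-lived mRNAs.

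Kinetochores join chromosomes to spindle microtubules. Of the 7 kinetochore and centromere genes, 6 were higher at 0 h, 7 at 1 h, and 6 each at 3 and 5 h (36%, 32.4%, 30.4% and 34.2% of all genes). Cenpa (chromosome 5, 30824121 to 30832174), the histone H3 variant that marks centromeres, had the largest difference of the group at 5 h and over the mean of the times, 1.53 ± 0.024. In WT, Cenpa stood at 59.6 and 64.7 (0 h), 51.0 and 51.2 (1 h), 66.0 and 74.9 (3 h) and 94.7 and 97.6 (5 h) in TMM-scaled CPM. Cenpa stood at 119.9 and 117 (0 h), 161 and 164 (1 h), 183 and 172 (3 h) and 436 and 435 (5 h) in the libraries labelled deficient. Its level in the libraries labelled deficient at 5 h was the highest of any member in any group on this scale, and every file labelled deficient was above every WT file. The differences were 0.93 ± 0.044, 1.67 ± 0.047, 1.34 ± 0.053 and 2.18 ± 0.048 (SE; largest edgeR adjusted p 3.13e-54, at 0 h). Cenpe, a kinetochore motor, led at 0 h with 1.20 ± 0.069, Birc5 at 1 h with 1.77 ± 0.044 and Nuf2 at 3 h with 1.70 ± 0.11. Cenpf was the smallest at 1 h, 0.81 ± 0.11.

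Ndc80, which forms the microtubule-binding rod together with Nuf2, was the exception. Ndc80 had TMM-scaled CPM of 15.8 and 14.1 (0 h), 6.87 and 5.76 (1 h), 13.2 and 14.6 (3 h) and 7.77 and 8.89 (5 h) in WT. Its values with the deficient label were 13.4 and 15.1 (0 h), 16.4 and 17.1 (1 h), 17.2 and 10.3 (3 h) and 9.14 and 7.94 (5 h). The genotypes overlapped at 0, 3 and 5 h and were apart at 1 h only, where WT was low. At 3 h the 2 files labelled deficient differed from each other by more than the genotypes did. The differences were -0.07 ± 0.12, 1.39 ± 0.15, -0.02 ± 0.16 and 0.04 ± 0.21, and the edgeR adjusted p-values were 0.65, 2.62e-17, 0.967 and 0.921. Its partner Nuf2 differed by 0.77 ± 0.08, 1.5 ± 0.092, 1.70 ± 0.11 and 1.26 ± 0.11 at the same times.

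Spindle motors and microtubule proteins build the spindle, and the cytokinesis proteins divide the cell afterwards. All 14 genes of this group were higher at 0 h, 13 at 1 h and 12 each at 3 and 5 h, with none called lower. The shares of all genes were 36%, 32.4%, 30.4% and 34.2% higher, and 24.2%, 31.8%, 37% and 30.1% lower. Kif11, the motor that pushes the spindle poles apart, held a smaller difference at 5 h than at the other times. In WT, Kif11 stood at 75.5 and 71.9 (0 h), 56.2 and 57.1 (1 h), 60.5 and 60.7 (3 h) and 91.2 and 87.5 (5 h) in TMM-scaled CPM. Kif11 stood at 121 and 118 (0 h), 115 and 121 (1 h), 102 and 101 (3 h) and 106 and 107 (5 h) in the libraries labelled deficient. WT was highest at 5 h, and the libraries labelled deficient were highest at the start. The differences were 0.70 ± 0.046, 1.06 ± 0.051, 0.74 ± 0.062 and 0.25 ± 0.06 (SE; largest edgeR adjusted p 9.36e-05, at 5 h), and the 5 h value became -0.04 when scaled on long-lived mRNAs. Tpx2, which activates Aurora A and nucleates spindle microtubules, went the other way, with its largest difference at 5 h. The WT files held 72.9 and 73.5 (0 h), 66.0 and 64.0 (1 h), 60.6 and 52.4 (3 h) and 78.4 and 71.4 (5 h) of TMM-scaled CPM. The files labelled deficient held 117 and 115 (0 h), 109 and 104.6 (1 h), 104.7 and 99.2 (3 h) and 171 and 173 (5 h). The differences were 0.67 ± 0.046, 0.72 ± 0.051, 0.85 ± 0.063 and 1.19 ± 0.059 (SE; largest edgeR adjusted p 1.35e-29, at 3 h).

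Prc1, which bundles the antiparallel microtubules of the midzone, approached WT over the course. Prc1 had TMM-scaled CPM of 23.8 and 25.4 (0 h), 23.6 and 24.4 (1 h), 22.9 and 21.3 (3 h) and 22.8 and 19.0 (5 h) in WT. Its values with the deficient label were 40.4 and 45.7 (0 h), 35.4 and 35.1 (1 h), 25.2 and 23.8 (3 h) and 22.5 and 27.4 (5 h). The genotypes were apart at 0 and 1 h, close at 3 h and overlapping at 5 h. The differences were 0.81 ± 0.079, 0.56 ± 0.087, 0.15 ± 0.12 and 0.24 ± 0.12, of which the last 2 did not pass (edgeR adjusted p = 0.261 and 0.0733), and under scaling on long-lived mRNAs the 3 h value was -0.55. Ect2, the exchange factor that activates RhoA for cytokinesis, differed by 2.03 ± 0.11 at 1 h, 0.16 ± 0.11 at 3 h and -0.22 ± 0.12 at 5 h. Kif23, a motor of the central spindle, had its largest difference at 0 h, 1.17 ± 0.1, and 0.11 ± 0.11 at 1 h.

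The other extremes of this group were microtubule proteins. Nusap1, a microtubule-stabilising protein, had the largest difference at 0 h, 1.33 ± 0.052, and at 5 h, 1.51 ± 0.07. Kif2c, a motor that takes microtubules apart at centromeres, led at 1 h with 2.08 ± 0.088, when WT stood at 12.7 and 13.4 and the libraries labelled deficient at 55.5 and 54.9 TMM-scaled CPM. Tacc3, which stabilises spindle fibres, led at 3 h with 2.01 ± 0.093 and over the mean with 1.38 ± 0.04. Kif20a was the smallest at 0 h, 0.23 ± 0.058, a value that became -0.10 when scaled on long-lived mRNAs.

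Condensin (Smc2, Smc4, Ncapd2, Ncapg) compacts chromosomes, Top2a untangles their DNA, and Ki-67 (Mki67) coats them in mitosis. All 6 were higher at 0, 1 and 5 h (36%, 32.4% and 34.2% of all genes), and 5 at 3 h (30.4%). Top2a (chromosome 11, 98883769 to 98915015) was the most abundant of them in CPM at 0 h. In WT, Top2a stood at 160.1 and 157 (0 h), 110.0 and 104 (1 h), 105.1 and 114 (3 h) and 69.9 and 75.5 (5 h) in TMM-scaled CPM. Top2a stood at 266 and 263 (0 h), 248 and 241 (1 h), 219 and 216 (3 h) and 262 and 274 (5 h) in the libraries labelled deficient. In WT the level fell in the first hour and again after 3 h, and with the deficient label every file was above all WT files. The differences were 0.74 ± 0.034, 1.19 ± 0.038, 0.99 ± 0.046 and 1.89 ± 0.052 (SE; largest edgeR adjusted p 6.02e-56, at 0 h). Smc2, an ATPase of condensin, had the smallest difference of the group at 0 h and 1 h and the largest at 3 h. The WT files held 72.2 and 59.5 (0 h), 74.7 and 72.6 (1 h), 57.4 and 49.7 (3 h) and 68.6 and 68.5 (5 h) of TMM-scaled CPM. The files labelled deficient held 91.5 and 99.2 (0 h), 108 and 104.5 (1 h), 130.2 and 127 (3 h) and 222 and 214 (5 h). The differences were 0.53 ± 0.049, 0.53 ± 0.051, 1.26 ± 0.063 and 1.67 ± 0.06 (SE; largest edgeR adjusted p 3.47e-20, at 1 h). Ncapd2, a condensin I subunit, had the largest difference of the group at 1 h. Ncapd2 had TMM-scaled CPM of 96.4 and 98.0 (0 h), 76.9 and 79.7 (1 h), 86.8 and 79.99 (3 h) and 138 and 133 (5 h) in WT. Its values with the deficient label were 169 and 168 (0 h), 186 and 184 (1 h), 162 and 151 (3 h) and 296 and 296 (5 h). The differences were 0.79 ± 0.039, 1.24 ± 0.043, 0.91 ± 0.051 and 1.13 ± 0.046 (SE; largest edgeR adjusted p 2.01e-43, at 3 h). Ncapg led at 0 h with 1.31 ± 0.085 and over the mean with 1.21 ± 0.049, and Smc4 was the smallest at 5 h with 0.97 ± 0.052.

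Mki67 (chromosome 7, 135291513 to 135318090), the common marker of cycling cells, was the only member called lower at 3 h. In WT, Mki67 stood at 72.3 and 67.3 (0 h), 64.3 and 68.2 (1 h), 135 and 136 (3 h) and 52.7 and 51.5 (5 h) in TMM-scaled CPM. Mki67 stood at 106 and 106 (0 h), 92.1 and 99.7 (1 h), 98.4 and 99.8 (3 h) and 207 and 203 (5 h) in the libraries labelled deficient. In WT the level rose between 1 and 3 h and was lowest at 5 h, so that WT lay above the libraries labelled deficient at 3 h and below at the other times. The differences were 0.60 ± 0.046, 0.54 ± 0.051, -0.45 ± 0.052 and 1.97 ± 0.062 (SE; largest edgeR adjusted p 1.03e-14, at 3 h).

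**Figure D2:**
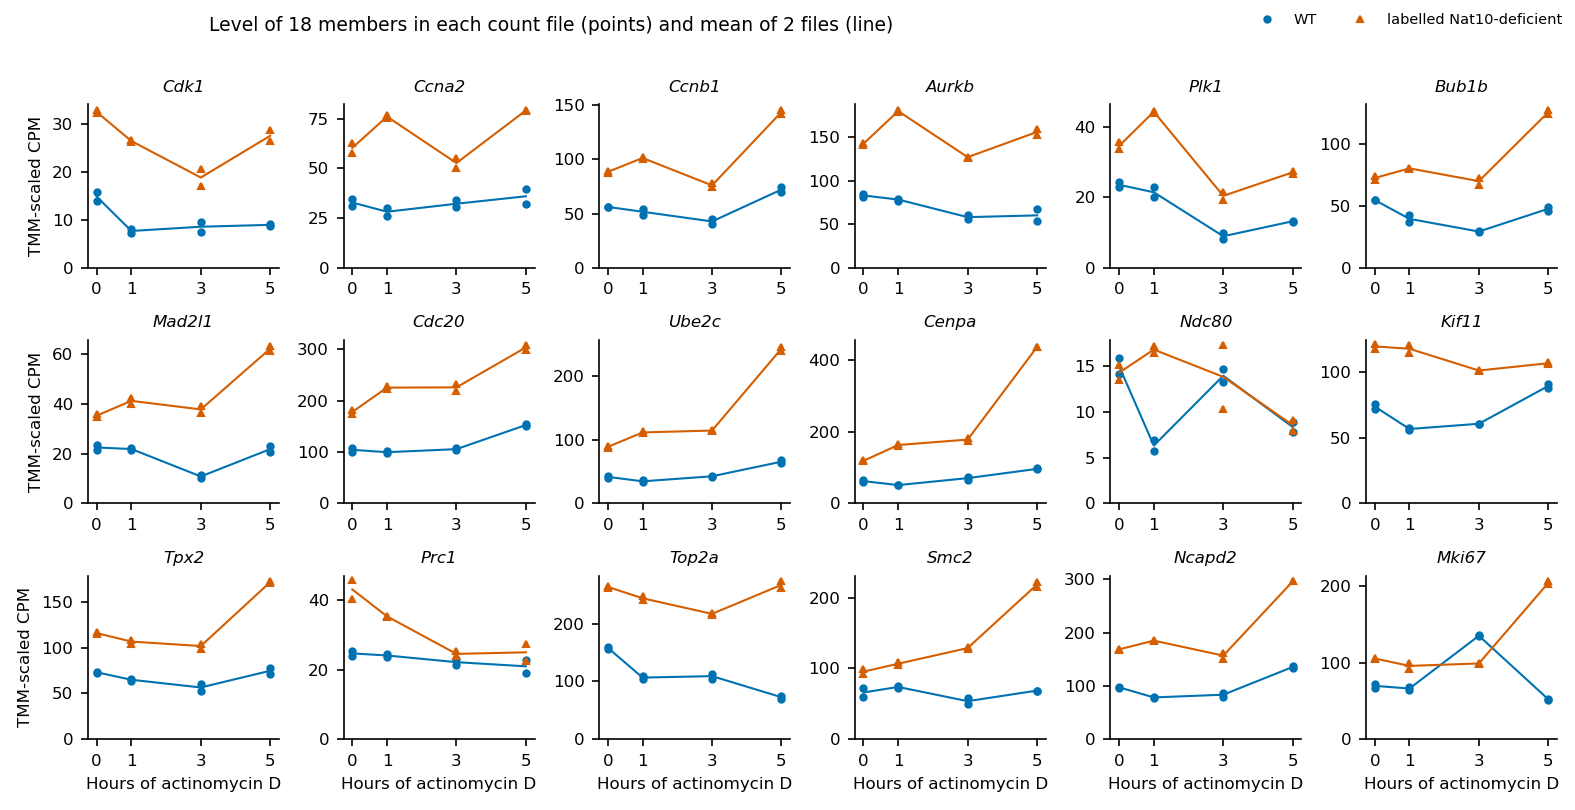
TMM-scaled CPM of 18 members against hours of actinomycin D; points are the 2 files of a group (circles WT, triangles labelled deficient), lines join their means, and each y axis starts at 0. The files of a group lie close together, the triangles lie above the circles at nearly every time, and Ndc80, Prc1 and Mki67 are the exceptions.

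Within a genotype, the first hour of the block was followed by lower division mRNAs in WT, relative to other genes. From 0 to 1 h 26 members fell and 5 rose in WT (median -0.28, against 31.6% of all genes lower and 29.7% higher), from -1.45 ± 0.17 for Ttk to 0.55 ± 0.12 for Kif23. Without the low-count filter 28 fell and 1 rose (18.8% and 18.1% of 46080 genes). The number that rose was 2 without the second WT file of 0 h and 3 without the second WT file of 1 h. All 7 kinetochore and centromere genes were among those that fell. With the deficient label 12 fell and 17 rose (median 0.04, against 26.7% and 23.2%), from -0.73 ± 0.084 for Cenpf to 0.86 ± 0.068 for Kif2c. A test of the difference between the steps of the genotypes was not run.

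From 1 to 3 h 16 members rose and 10 fell in WT (median 0.10, against 36.1% higher and 30.7% lower), between -1.27 ± 0.14 for Plk1 and 1.68 ± 0.14 for Ect2. In the libraries labelled deficient 7 rose and 18 fell (median -0.10, against 27.7% and 28.1%), between -1.15 ± 0.15 for Ttk and 0.39 ± 0.051 for Hmmr, a microtubule and hyaluronan-binding protein. Of the 9 kinases and cyclins 7 fell there. From 3 to 5 h 22 rose and 8 fell in WT (median 0.28, against 27.8% and 35.1%), between -1.38 ± 0.071 for Mki67 and 1.17 ± 0.12 for Cenpe. With the deficient label 30 rose and 4 fell (median 0.54, against 30.6% and 32.1%; 2 fell without the first file of 3 h or the second of 5 h), between -0.69 ± 0.15 for Ndc80 and 1.29 ± 0.036 for Cenpa. Neighbouring steps share the libraries of the time between them. The last WT step changed its direction with the scaling. When libraries were scaled on gene counts without immunoglobulin 5 members rose and 23 fell (median -0.25), against 14.7% and 49.5% of all genes (median -0.58). When they were scaled on long-lived mRNAs 1 rose and 33 fell (median -0.58), against 9.47% and 59.4% of all genes (median -0.90). Under that last scaling the 3 to 5 h step with the deficient label had 19 members up and 14 down (18.8% and 44.6% of all genes), and the 1 to 3 h step none up and 37 down (18% and 43%).

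**Figure D3:**
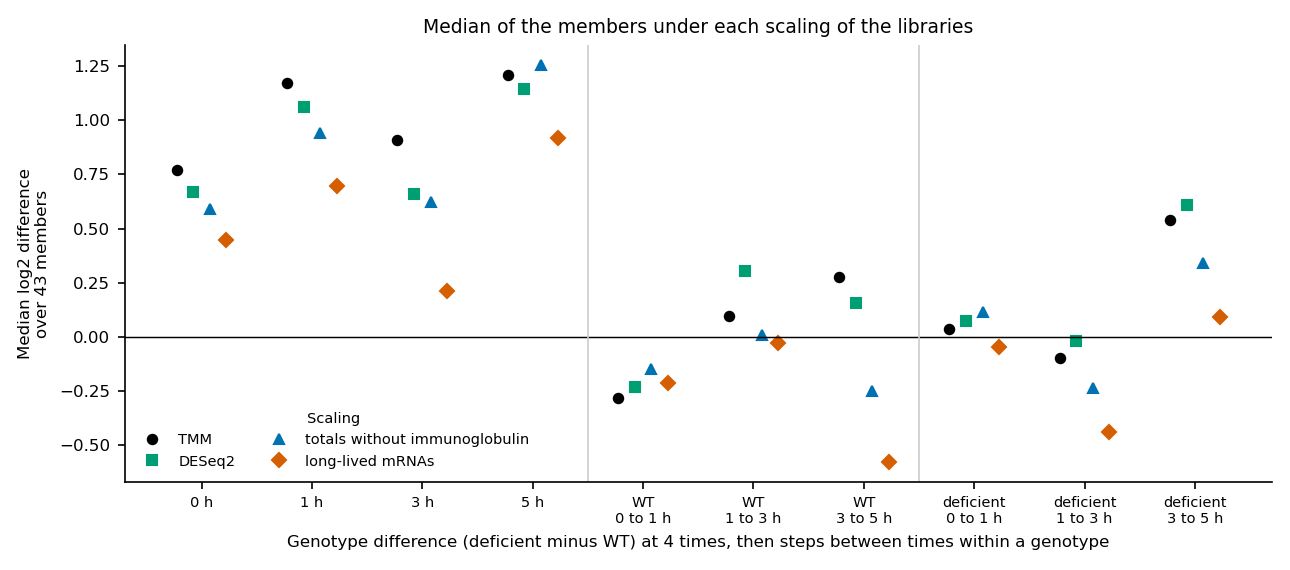
Median log2 difference over the 43 members for the genotype differences at 4 times (left) and the steps between times within each genotype (right), with the libraries scaled in 4 ways (symbols). The genotype medians stay above 0 under each of the 4 scalings, whereas the WT step from 3 to 5 h lies between 0.28 and -0.58.

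Set against the ERCC spike-ins, which were added to each sample in equal amount, all 43 members fell in both genotypes. The slopes over 0 to 5 h were called negative for 43 of 43 in WT (57.4% of all genes) and 43 of 43 in the libraries labelled deficient (71.3%; 11.1% and 3.19% of all genes had positive slopes). The median slope was -0.38 log2 per hour in WT, which corresponds to a half-life of 2.63 h, and -0.42 with the deficient label, or 2.36 h. The slope of the median gene of all 25081 corresponds to 2.75 h and 2.08 h. Without the 0 h libraries the members' median slopes correspond to 4.42 h in WT and 4.18 h with the deficient label, against 3.38 and 3.15 h for the median gene. Scaled on long-lived mRNAs they correspond to 6.07 and 8.87 h, against 5.38 and 5.95 h, and 38 members fell in WT (47.3% of all genes) while 33 fell and 7 rose with the deficient label (53.9% and 10.8%). The half-lives given below are those over all 4 times under ERCC scaling. With the files summed 24 members in WT and 34 with the deficient label were called falling (edgeR), against 26.7% and 35.4% of all genes (0.845% and 0.012% positive). Under TMM scaling, against the other mRNAs, 10 members fell and 16 rose in WT (31.2% and 28.1% of all genes), and 10 fell and 27 rose with the deficient label (31.8% and 29%).

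Most of the loss fell in the first hour. The members summed stood at 42.7%, 39.2% and 22.4% of their 0 h level at 1, 3 and 5 h in WT, by ERCC scaling of the summed files, and at 42.3%, 27.4% and 24.2% in the libraries labelled deficient. The 24 long-lived mRNAs summed stood at 49.6%, 45.4% and 40.4% and at 41.6%, 36.5% and 27.9%. At 5 h the share left ran from 3.89% for Cdc25c to 45.0% for Hmmr in WT, and from 8.82% for Ttk to 55.96% for Cenpa with the deficient label. Some courses did not fall evenly. Mki67 in WT stood at 49.1%, 84.6% and 16.1%, Ect2 in WT at 19.3%, 52.0% and 29.7%, and Cenpa with the deficient label at 53.9%, 40.7% and 55.96%. Per the labels, each time is a separate sort.

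The kinases and cyclins were lost fastest as a group, with a half-life at the median slope of 2.04 h in WT and 2.0 h with the deficient label, and the checkpoint and anaphase-promoting complex genes slowest, with 3.5 and 2.87 h. These medians are descriptions and were not compared by a test. Among the kinases Plk1 fell by 0.61 log2 per hour in WT and 0.62 with the deficient label, half-lives of 1.64 and 1.61 h. Aurka and Cdk1 were also among the faster genes in both, with 1.95 and 2.04 h in WT and 1.59 and 1.83 h with the deficient label, whereas Ccnb2 was the slowest of its role at 3.68 and 3.21 h. Cdc25c was the fastest of the kinase group in WT, at 1.24 h. Ube2c was the slowest of the checkpoint group in both, at 4.05 and 4.43 h, and the fastest were Mad2l1 in WT (2.21 h) and Ttk with the deficient label (1.44 h). In the kinetochore group Cenpf (1.73 h) and Cenpe (4.51 h) were the extremes in WT, and Ndc80 (1.54 h) and Cenpa (6.83 h) those of the libraries labelled deficient. Of the spindle genes Kif20b (1.86 h) and Ect2 (5.79 h) bounded WT, and Prc1 (1.54 h) and Hmmr (4.63 h) the libraries labelled deficient. Top2a was the fastest chromosome gene in both, at 1.71 and 2.05 h, and Ncapd2 in WT and Smc2 with the deficient label the slowest.

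The other core genes were lost at these rates. Ccna2 had 2.86 h in WT and 2.21 h with the deficient label, Ccnb1 2.98 and 2.60 h, and Aurkb 1.99 and 2.0 h. Bub1b had 2.30 and 2.82 h, Mad2l1 2.21 and 2.87 h, and Cdc20 3.5 and 2.81 h. Kif11 had 3.09 and 1.89 h and Tpx2 2.55 and 2.62 h. Smc2 had 2.42 and 3.90 h, Ncapd2 3.46 and 2.84 h, and Mki67 2.40 and 3.31 h. Across the 43 members the slopes of the genotypes were related with Pearson's r of 0.46 and Spearman's rho of 0.53, a description over genes that share libraries and are not independent. Exonic length was related to the slopes with rho of -0.23 in WT and -0.12 with the deficient label.

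**Figure D4:**
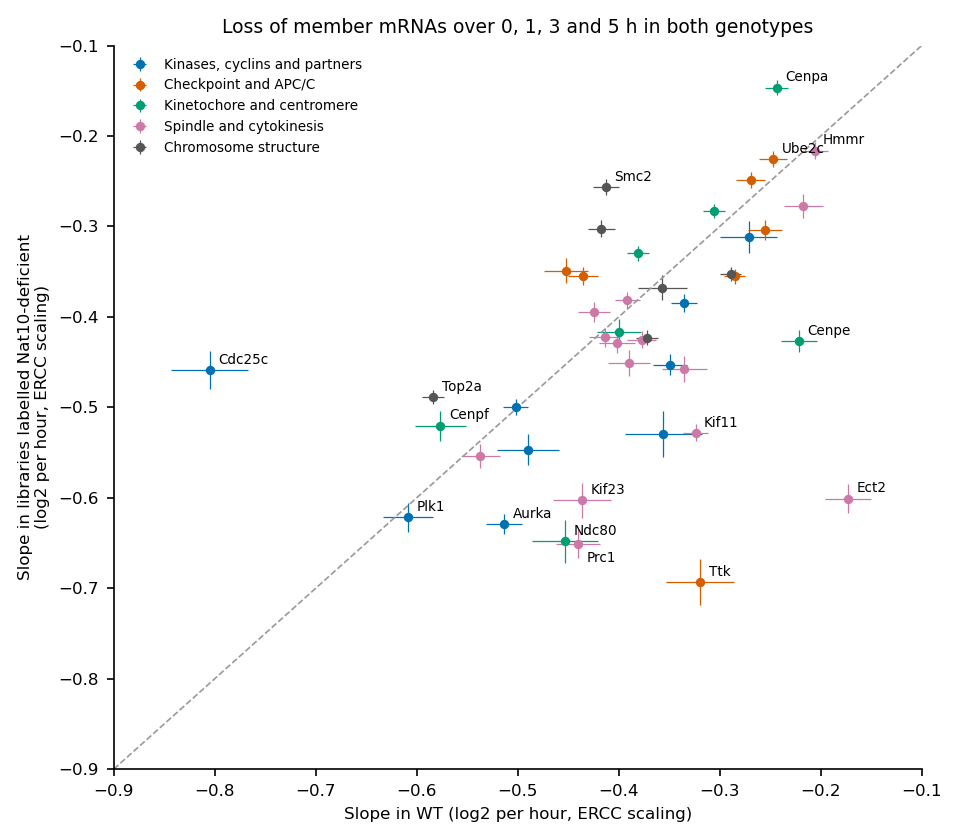
Slope of each member over 0, 1, 3 and 5 h in WT (x axis) and in the libraries labelled deficient (y axis), in log2 per hour under ERCC scaling; bars are standard errors, colours are roles, and the dashed line marks equal slopes. All 43 points are negative on both axes, and Ect2 and Ttk lie farthest below the line and Cdc25c farthest above it.

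The slopes of the genotypes differed for 27 members by the interaction test: 19 fell faster with the deficient label (32.1% of all genes) and 8 fell faster in WT (15.7%). The median difference was -0.03 log2 per hour, against -0.10 over all genes. Ect2 (-0.43 ± 0.029 log2 per hour, SE) and Ttk (-0.37 ± 0.045) fell faster with the deficient label, and Cdc25c (0.35 ± 0.05) and Smc2 (0.16 ± 0.016) fell faster in WT. The differences of Cdk1 (-0.057 ± 0.04), Plk1 (-0.013 ± 0.035), Aurkb (0.0022 ± 0.015), Ube2c (0.021 ± 0.017) and Tpx2 (0.010 ± 0.015) did not pass. These calls rest on the scaling and on the files as replicates. Under TMM or long-lived scaling 5 members fell faster with the deficient label and 27 in WT, against 24.2% and 24.5% of all genes with TMM and 24.2% and 24.6% with long-lived mRNAs. Without the 5 h libraries the numbers were 32 and 2, against 43.4% and 10.2%. With the files summed none was called (edgeR; 0 at an unadjusted p under 0.05), against 0.239% and 0.0399%. Over the 21 fits of scaling, tool, filter, block and left-out libraries, 13 members kept the call and its direction: Ttk, Cenpe, Kif11, Prc1 and Ect2 on the side of the deficient label, and Cdc25c, Bub1b, Mad2l1, Cenpa, Cdca8, Smc2, Top2a and Mki67 on that of WT. Among the core members and role extremes of these, Cdc25c, Cenpa, Top2a and Mki67 turned to the other side without the 5 h libraries, with values of -0.01, -0.12, -0.16 and -0.59. Cdca8, whose value without those libraries is not given here, also fell further with the deficient label up to 3 h. By ERCC scaling Cdca8 then stood at 38.5% of its 0 h level in WT and 28.9% with the deficient label. How many of all genes kept a slope call and its direction over these fits was not computed.

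Other genes of the pathway, from lists of 76 genes outside the 43, were compared in the same fits. At 0 h 54 of 76 were higher and 11 lower (median 0.42, against 36% and 24.2% of all genes), and over the mean of the times 64 were higher and 5 lower (median 0.53, against 31.6% and 21.6%). All 17 other spindle and cytokinesis genes were higher at 0 h (median 0.83), and 14 of 16 other kinetochore genes. Of 18 subunits and regulators of the anaphase-promoting complex 9 were higher and 4 lower, against those same 36% and 24.2% at 0 h. Espl1, the protease separase, was higher by 1.36 ± 0.097 and Pttg1, its inhibitor securin, lower, at -0.43 ± 0.088. Fzr1, the activator of the complex in G1, differed by -0.92 ± 0.08. Both kinases that restrain Cdk1 were measured, and Pkmyt1 was higher by 1.11 ± 0.061 whereas Wee1 differed by -0.33 ± 0.086. For comparison, 22 of 24 S phase genes were higher at 0 h (median 0.69) and all 24 over the mean of the times (median 1.0). All 76 genes and all 24 S phase genes fell by ERCC scaling in both genotypes (57.4% and 71.3% of all genes).

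The regulators that act on these promoters include FoxM1, B-Myb and the DREAM and MuvB subunits. At 0 h, of 10 measured (Lin54 was not matched), 4 were higher and 3 lower, near the 36% and 24.2% of all genes. Foxm1 stood at 13.3 ± 0.897 CPM in WT (SD, n = 2 files) and 8.87 ± 0.389 in the libraries labelled deficient, a log2 difference of -0.35 ± 0.15 (edgeR adjusted p = 0.028), and Mybl2, which encodes B-Myb, differed by -0.05 ± 0.099 (adjusted p = 0.75). In WT at 5 h Foxm1 had 1 and 0 counts, at 15.4 ± 0.467 CPM with the deficient label, and no fold is given. E2f4, a DREAM subunit, differed by 0.54 ± 0.059 at 0 h, and Rbl2, the p130 pocket protein of resting cells, by -0.37 ± 0.075. At 1, 3 and 5 h 7 of the 10 regulators were higher each time, against 32.4%, 30.4% and 34.2% of all genes. Rbl2 was lower at 1 and 5 h, against 31.8% and 30.1% of all genes, and Lin9 and Lin52 at 3 h, against 37%. Over the mean of the times 7 were higher and Rbl2 was lower, against 31.6% and 21.6%. Between members with and without a CHR match the 0 h differences had medians of 0.79 (29 members) and 0.75 (8 members). Over the mean of the times the medians lay in the other order, at 1.01 with a match and 1.21 without.

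Markers of several cell types also differed between the labelled genotypes. At 0 h the 12 LT-HSC markers were all detected and summed to 2893 to 2948 CPM in the 2 WT files and 1176 to 1181 in those labelled deficient. The 6 markers of multipotent and committed progenitors summed to 5400 to 5455 and 9712 to 9773, the 7 erythroid markers to 951 to 974 and 1583 to 1601, and the 4 eosinophil markers to 253 to 258 and 1355 to 1370. The mast cell and basophil list, of 5, summed to 118 to 125 and 358 to 365. The 8 plasma cell markers summed to 3714 to 3731 and 6280 to 6285, and the 4 megakaryocyte markers to 367 to 379 and 384 to 401. The 5 neutrophil and monocyte markers summed to 243 to 252 and 435 to 443, and the 7 B and T cell markers to 70.2 to 71.1 and 91.5 to 95.7. At 5 h erythroid markers stood at 579 to 583 in WT and 5515 to 5550 with the deficient label, and the 8 plasma cell markers at 71382 to 72997 and 4332 to 4334. Most of this plasma cell sum was Jchain, with 5 h means of 70535.5 CPM in WT and 4211 with the deficient label. The LT-HSC markers stood at 750 to 762 in WT and 811 to 845 with the deficient label at 3 h. Their 5 h sums were 519 to 531 and 334 to 336, but single markers went different ways. At 5 h Ly6a stood at 192 CPM in WT and 13.0 with the deficient label, whereas Kit stood at 37.0 and 151. Procr (41.7 and 14.2), Slamf1 (8.07 and 0.571) and Mecom (8.18 and 2.61) were higher in WT at that time. Mzb1 was at 0 in WT at 0 h, Pax5 and Cd3e of the B and T cell list were at 0 in WT at 0 h, Ly6g was at 0 in every group except the deficient label at 5 h, and Gp1bb was at 0 in all 8 groups. The part of these cells in the members' differences was not tested. Without immunoglobulin in the total, the members summed to 2951, 2660, 2735 and 2204 CPM at 0, 1, 3 and 5 h in WT and to 4414, 5022, 4284 and 5876 in the libraries labelled deficient.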

How the data were processed

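Gene counts as deposited were used, raw and without normalization. Per the file headers, the authors counted read pairs with both ends aligned over exons with featureCounts 1.6.3, without strand, on Ensembl release 105 (GRCm39) with 92 ERCC spike-ins; the submitters' processing notes also name STAR and DESeq2. RNA came from sorted cells by Smart-seq2, per the labels, and the 16 libraries form 8 groups of 2 files. Symbols were matched for 52081 identifiers (94.0%). The members and gene lists were chosen with earlier results of these data known. CPM were taken over gene counts without ERCC. All 25081 genes kept by filterByExpr were fitted with edgeR 4.0.16 (R 4.3.3), 1 mean per group over all libraries, using the quasi-likelihood test and Benjamini-Hochberg adjustment at 0.05 in 14 comparisons. Genotype differences and steps used TMM factors, and slopes over 0, 1, 3 and 5 h used ERCC totals; a half-life is the time for a factor of 2 at that slope. Alternatives were DESeq2 1.42.0, no filter (46080 genes), a replicate block, each library left out, group sums, and scaling on ERCC, on 24 long-lived mRNAs or without 395 immunoglobulin genes. All statistics are given for 18 core members and values for the extremes of each role; for the steps the extremes over all members only, a departure from the written rule. The fit, tested on simulated data of 25081 genes, recovered 86% of genes changed by log2 1 at 0 h and 90% of WT slopes of 0.2. The simulated slopes were scaled on gene totals and not on ERCC counts, which were not simulated. Whether these rates hold for the measured libraries, whose immunoglobulin and ERCC shares differ widely, was not tested. Total counts per library set the precision, and reported spreads cover the files only. Promoters are RefSeq GRCm38.p6, and coordinates of genes are those of the files.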

Additional observations from a re-analysis of the deposited data

Results flagged for a closer look

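The 18 members named here had slopes that differed between the genotypes by the interaction test under ERCC scaling (edgeR, adjusted p under 0.05), so each is listed with its slope in the libraries labelled deficient minus that in WT, in log2 per hour. Those that fell faster with the deficient label were Ccnb1 (-0.049), Ccna2 (-0.10), Cks2 (-0.17), Ttk (-0.37), Cdc20 (-0.070), Cenpe (-0.21), Ndc80 (-0.20), Kif11 (-0.20), Prc1 (-0.21), Ect2 (-0.43) and Ncapd2 (-0.064). Those that fell faster in WT were Cdc25c (0.35), Bub1b (0.081), Mad2l1 (0.10), Cenpa (0.097), Smc2 (0.16), Top2a (0.095) and Mki67 (0.11). Each is a member of the core list or an extreme of its role, and the other 9 members called by this test are counted in the text above. With the 2 files of a group summed none of them passed. Of all genes 32.1% were called as faster with the deficient label and 15.7% as faster in WT. Under TMM scaling Ccnb1 (0.044), Cdc20 (0.023) and Ncapd2 (0.030) turned positive, and so they did under scaling on long-lived mRNAs. Without the 5 h libraries Cdc25c (-0.0089), Cenpa (-0.12), Top2a (-0.16) and Mki67 (-0.59) turned negative.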

How the results depend on the processing

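In the direction most members took, no comparison's count moved by over 1.5 times without the low-count filter, with the replicate block or without any 1 library. The small counts of the other direction did move, as given beside the results: the lone lower calls at 0 h and 5 h were lost in some of these fits, 2 members were lower at 3 h without the first deficient-labelled file, and the 5 members that rose from 0 to 1 h in WT became 1 without the filter. The median of the last WT step, 0.28, was 0.16 to 0.21 without any 1 of its libraries. The counts of members higher stayed at 40 to 41 at 0 h, 42 at 1 h, 37 to 39 at 3 h and 38 to 40 at 5 h when each library was left out in turn, and the slope difference called 14 to 19 members as faster with the deficient label. Same-numbered files deviated together with correlations of -0.016 to 0.107, so the numbers do not pair the samples; with the replicate block 40 members were higher at 0 h and all 43 over the mean of the times. The counts that moved by over 1.5 times and the medians that turned direction follow, and the cause was not tested. Single members that turned are listed only where they are core members or extremes of their role. These lists are therefore partial, and other members turned too. With the files summed, the count of members called in the direction reported was 0 (0 h, read from straight lines through the times), 1 (mean of the times), 24 (WT slope), 0 (slope difference). With DESeq2, the count of members called in the direction reported was 25 (step 1 to 3 h in WT). Scaled on ERCC counts, single members turned as follows. In the 0 h comparison the values were Cdc25c 5.90, Ndc80 6.07. In the 3 h comparison the values were Ttk 5.22, Ndc80 5.44, Mki67 5.01. In the 5 h comparison the values were Ttk 5.22, Ect2 5.42. Scaled on long-lived mRNAs, the count of members called in the direction reported was 23 (3 h), 1 (step 3 to 5 h in WT), 37 (step 1 to 3 h with the deficient label), 19 (step 3 to 5 h with the deficient label), 5 (slope difference). Scaled on long-lived mRNAs, the members' median log2 value was -0.029 (step 1 to 3 h in WT), -0.58 (step 3 to 5 h in WT), -0.045 (step 0 to 1 h with the deficient label), 0.067 (slope difference). Scaled on long-lived mRNAs, single members turned as follows. In the 0 h comparison the values were Ttk -0.051, Kif20a -0.098. In the 1 h comparison the values were Kif23 -0.37. In the 3 h comparison the values were Ccnb2 -0.21, Prc1 -0.55. In the 5 h comparison the values were Kif11 -0.037. In the mean of the times comparison the values were Ttk -0.10, Ndc80 -0.11, Prc1 -0.0085. In the WT slope comparison the values were Ect2 0.043. In the slope with the deficient label comparison the values were Ube2c 0.084, Cenpa 0.16, Hmmr 0.094, Smc2 0.054, Mki67 0.0080. In the slope difference comparison the values were Ccnb1 0.045, Plk1 0.082, Cdc20 0.024, Ncapd2 0.030. Scaled on totals without immunoglobulin genes, the count of members called in the direction reported was 5 (step 3 to 5 h in WT). Scaled on totals without immunoglobulin genes, the members' median log2 value was -0.25 (step 3 to 5 h in WT). With TMM factors, the count of members called in the direction reported was 10 (WT slope), 10 (slope with the deficient label), 5 (slope difference). With TMM factors, the members' median log2 value was 0.013 (WT slope), 0.064 (slope with the deficient label), 0.066 (slope difference). With TMM factors, single members turned as follows. In the WT slope comparison the values were Ccnb1 0.059, Ccnb2 0.12, Ccna2 0.045, Cdc20 0.11, Ube2c 0.15, Cenpa 0.15, Cenpe 0.17, Tpx2 0.0028, Kif11 0.070, Ect2 0.22, Ncapd2 0.11. In the slope with the deficient label comparison the values were Ccnb1 0.10, Ccnb2 0.18, Ccna2 0.035, Bub1b 0.13, Mad2l1 0.14, Cdc20 0.13, Ube2c 0.26, Cenpa 0.34, Tpx2 0.11, Hmmr 0.27, Smc2 0.23, Ncapd2 0.13, Mki67 0.19. In the slope difference comparison the values were Ccnb1 0.044, Plk1 0.081, Cdc20 0.023, Ncapd2 0.030. Without the 5 h libraries, the count of members called in the direction reported was 32 (slope difference). Without the 5 h libraries, single members turned as follows. In the slope difference comparison the values were Aurkb -0.12, Cdc25c -0.0089, Ube2c -0.14, Cenpa -0.12, Tpx2 -0.15, Top2a -0.16, Mki67 -0.59. Without the 0 h libraries, the members' median log2 value was 0.0033 (slope difference). Without the 0 h libraries, single members turned as follows. In the WT slope comparison the values were Cenpe 0.0043, Ect2 0.16. In the slope with the deficient label comparison the values were Cenpa 0.014. The restrictions to some of the times were chosen after seeing the data. The lowest member counts, 14 for Cdc25c in WT at 5 h, limit the precision of that gene, and the tests rest on the spread between files of 1 alignment.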
